A study of Bos taurus with 9 samples.

Results

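The 10 genes described here act on maternal mRNA, the messages that an oocyte stores and hands to the embryo. They are BTG4, CNOT6L, CNOT7, PABPN1L, PABPC1L, CPEB1, PATL2, ZAR1, ZAR1L and MOS, chosen by name. Each name matched 1 row, so 10 of the 16129 genes present in all 9 files were members. CPEB1 and ZAR1L carry their names in the 8-cell files alone, and their morula values were joined by Ensembl gene identifier (ENSBTAG00000000623 for CPEB1 and ENSBTAG00000026384 for ZAR1L). The other identifiers are ENSBTAG00000034346 (BTG4), ENSBTAG00000004353 (CNOT6L), ENSBTAG00000018036 (CNOT7), ENSBTAG00000023752 (PABPN1L), ENSBTAG00000016849 (PABPC1L), ENSBTAG00000001558 (PATL2), ENSBTAG00000004886 (ZAR1) and ENSBTAG00000019145 (MOS).

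A growing oocyte makes mRNA ahead of time and holds much of it with a short poly(A) tail, silent, until it is needed. Lengthening the tail in the cytoplasm turns such a message on, and shortening it (deadenylation, mainly by the CCR4-NOT complex) leads to its decay. The clearance of maternal mRNA runs from oocyte maturation to the stage at which the embryo transcribes its own genome, which in cattle falls around the 8-cell stage. The values below are transcript levels, and they show neither tail length nor translation.

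The embryos were bovine clones, produced by fusing a body cell with an oocyte stripped of its own chromosomes (somatic cell nuclear transfer, SCNT). KDM6A morulae (3 libraries) had received mRNA for bovine wild-type KDM6A, a demethylase of lysine 27 on histone H3, 1 h after activation. Control morulae (3 libraries) were not injected, and 8-cell embryos (3 libraries), also labelled control, were taken by the submitters from an earlier series. All groups were Holstein. According to the protocols in the labels, fibroblasts from 1 female fetus served as donors, oocytes were obtained from abattoir ovaries, and 5 morulae collected on day 5 were pooled for each morula library. The same protocol text stands on all samples and describes morulae, so the pool size, donor cells and oocyte source of the 8-cell libraries are unknown here. As controls were uninjected, the injection and the KDM6A mRNA cannot be told apart, and against 8-cell embryos neither can stage and the series of origin. The labels do not state whether replicate pools were made on separate days or from separate oocytes, and the p-values therefore reflect only the scatter of these libraries, which may be technical.

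Values are FPKM, fragment counts scaled by transcript length and library total, so levels can be compared between genes. The sequencing depth is unknown. KDM6A itself stood at 35.65, 87.58 and 79.44 FPKM in KDM6A morulae, against 10.72, 13.86 and 10.74 FPKM in control morulae. Across all genes in the 9 files, log2(FPKM + 1) correlated at 0.983 to 0.993 among KDM6A morulae, 0.986 to 0.992 among control morulae and 0.973 to 0.979 among 8-cell embryos. Of 12 morula and lineage markers, 7 were called higher and 5 lower in control morulae than in 8-cell embryos. KRT18, a keratin of outer cells, stood at 18.45 to 51.52 FPKM in KDM6A morulae, 31.76 to 66.19 FPKM in control morulae and 0.04 to 0.41 FPKM in 8-cell embryos, whereas NANOG, a pluripotency factor, was at 32.28 to 67.91, 40.07 to 44.2 and 59.04 to 107.28 FPKM in the same groups. GATA3, a trophoblast factor, overlapped between KDM6A morulae (2.33 to 3.29 FPKM) and 8-cell embryos (1.44 to 5.33 FPKM). Fold changes below are on the log2(FPKM + 1) scale from limma, which understates the change of low genes, and a call is an adjusted p under 0.05 over all genes tested. Genes were tested where at least 3 of the 6 libraries compared reached 1 FPKM.

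BTG4, a protein that in mouse oocytes brings the CCR4-NOT deadenylase to maternal messages, was by far the most abundant of the 10 at the 8-cell stage. It stood at 159.89, 86.76 and 106.77 FPKM in KDM6A morulae, at 374.34, 8.35 and 90.41 FPKM in control morulae and at 3360.44, 8657.55 and 5715.83 FPKM in 8-cell embryos. Every morula library was below every 8-cell library, while the morula groups overlapped, and control replicates 1 and 2 were the highest and the lowest of the 6 morula libraries. Ranked by FPKM within a library, BTG4 was the 23rd, 13th and 15th most abundant row in 8-cell replicates 1, 2 and 3. In KDM6A morulae its rank was between 908 and 1411, and in control morulae between 468 and 5472. BTG4 fell by 6.33 on the log2 scale in control morulae relative to 8-cell embryos (SE 1.035, limma adjusted p = 0.000402), a mean of 2.67% of the 8-cell level, and the fold change was -7.56 without control replicate 1 and -4.89 without control replicate 2. In KDM6A morulae it fell by 5.58 (SE 0.325, limma adjusted p = 5.87e-07), with a mean of 1.99% of the 8-cell level.

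**Figure D1:**
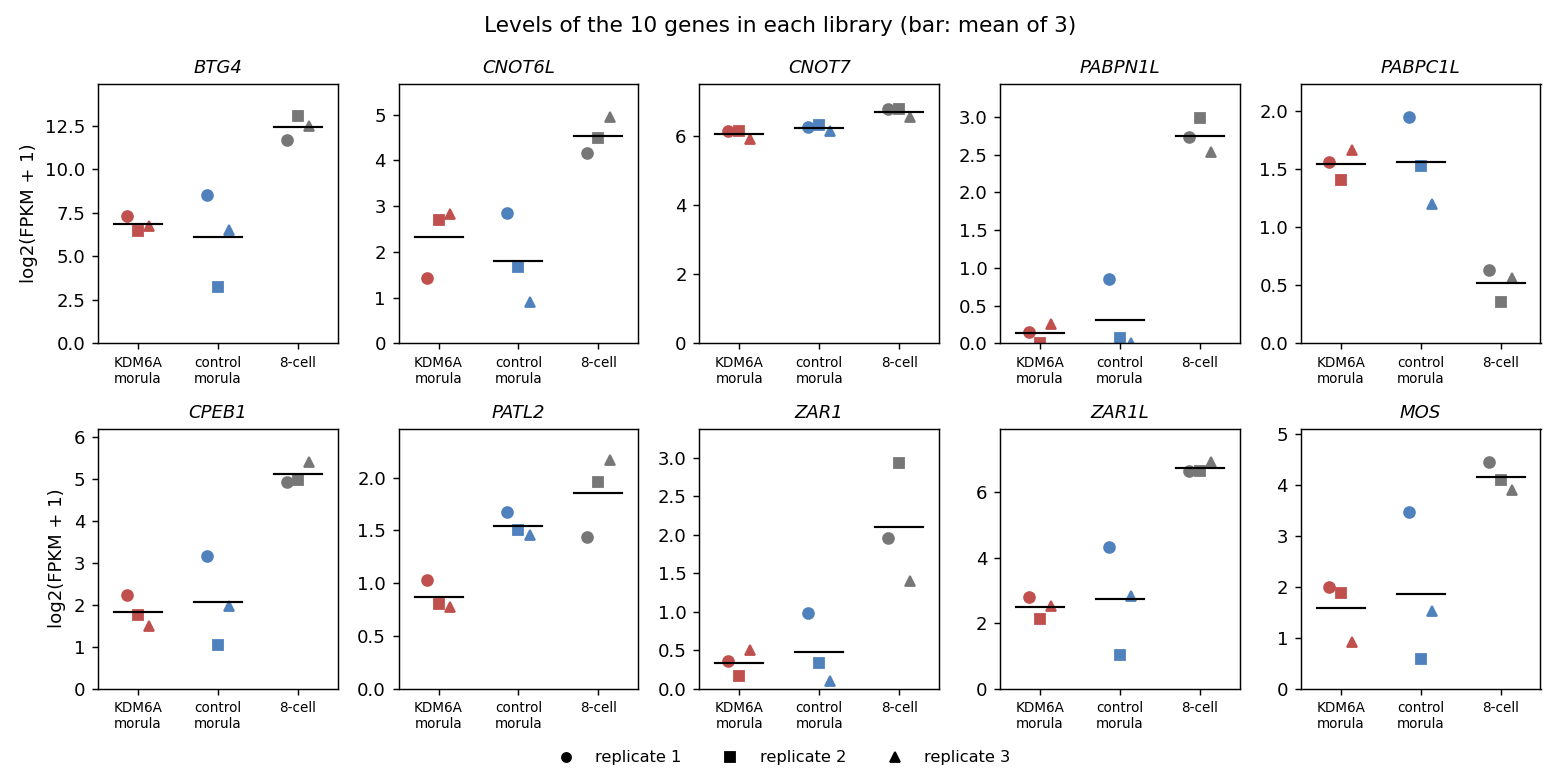
Levels of the 10 genes as log2(FPKM + 1) in each library, with KDM6A morulae, control morulae and 8-cell embryos from left to right, point shapes for replicate numbers and bars for the mean of 3; the vertical scale differs between panels and starts at 0. Most genes are highest in 8-cell embryos, PABPC1L is lowest there, and control replicate 1 (circle) is the highest control for 9 of the 10 genes.

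The catalytic deadenylases of the CCR4-NOT complex differed in how much transcript the morulae held. CNOT6L, the deadenylase implicated with BTG4 in maternal mRNA decay in mouse, stood at 1.71, 5.49 and 6.06 FPKM in KDM6A morulae, at 6.22, 2.2 and 0.86 FPKM in control morulae and at 16.77, 21.53 and 30.03 FPKM in 8-cell embryos. All morula libraries lay below the 8-cell libraries, and CNOT6L fell by 2.73 in control morulae relative to 8-cell embryos (SE 0.446, limma adjusted p = 0.000404) and fell by 2.21 in KDM6A morulae (SE 0.383, limma adjusted p = 0.000454). CNOT7, the other type of catalytic subunit and one used in many tissues, was at 68.89, 68.79 and 58.44 FPKM in KDM6A morulae, at 74.50, 77.56 and 69.52 FPKM in control morulae and at 107.77, 108.51 and 91.51 FPKM in 8-cell embryos. The 3 groups did not overlap for CNOT7, but the steps between them were small. CNOT7 fell by 0.47 in control morulae relative to 8-cell embryos (SE 0.173, limma adjusted p = 0.0347) and fell by 0.64 in KDM6A morulae (SE 0.192, limma adjusted p = 0.0123). The first of these calls was lost when any library other than 8-cell replicate 3 was left out (adjusted p up to 0.151), and the other without KDM6A replicate 3 (adjusted p = 0.0605). Single control libraries held 67.8% to 75.6% of the 8-cell mean of CNOT7 and 3.78% to 27.3% of that of CNOT6L, the highest in control replicate 1.

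The poly(A)-binding members went opposite ways. PABPN1L, an oocyte relative of the nuclear poly(A)-binding protein that in mouse works as a partner of BTG4, was at 0.11, 0 and 0.19 FPKM in KDM6A morulae, at 0.81, 0.05 and 0 FPKM in control morulae and at 5.63, 6.88 and 4.78 FPKM in 8-cell embryos. No morula library reached 1 FPKM, so PABPN1L was tested against 8-cell embryos through that group alone and had to differ. It fell by 2.44 in control morulae (SE 0.279, limma adjusted p = 4.64e-05) and fell by 2.61 in KDM6A morulae (SE 0.236, limma adjusted p = 6.81e-06). Because the filter fixed the direction of PABPN1L in advance, these p-values add no support to the fall. PABPC1L, the embryonic form of the cytoplasmic poly(A)-binding protein, stood at 1.95, 1.65 and 2.17 FPKM in KDM6A morulae, at 2.87, 1.88 and 1.30 FPKM in control morulae and at 0.55, 0.28 and 0.48 FPKM in 8-cell embryos. It was the single member higher in morulae, in each of the 6 libraries. PABPC1L rose by 1.04 in control morulae relative to 8-cell embryos (SE 0.238, limma adjusted p = 0.00304) and rose by 1.03 in KDM6A morulae (SE 0.215, limma adjusted p = 0.00156). It passed the filter through the morula libraries alone, so it too had to differ, and its p-values add no support to these rises. After quantile normalization these rises were 0.59 (adjusted p = 0.0441) and 0.55 (adjusted p = 0.0496), and with a pseudocount of 0.1 they were 1.95 and 1.94. With values below 3 FPKM in all 9 libraries, it was a minor transcript beside PABPC1, the general cytoplasmic poly(A)-binding protein.

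Among the members that regulate stored mRNA, ZAR1L was the highest at the 8-cell stage. ZAR1L, a zinc-finger relative of the RNA-binding maternal factor ZAR1, was at 5.97, 3.38 and 4.75 FPKM in KDM6A morulae, at 18.87, 1.05 and 6.12 FPKM in control morulae and at 98.52, 98.33 and 119.67 FPKM in 8-cell embryos. The 8-cell libraries were tightly grouped and far above all morulae, whereas the controls spread 18.0-fold. ZAR1L fell by 4.00 in control morulae relative to 8-cell embryos (SE 0.635, limma adjusted p = 0.000336) and fell by 4.24 in KDM6A morulae (SE 0.246, limma adjusted p = 5.85e-07). The value of ZAR1L in control morulae was -4.79 without control replicate 1 and -3.16 without control replicate 2. ZAR1 was much lower, at 0.28, 0.12 and 0.41 FPKM in KDM6A morulae, at 0.97, 0.26 and 0.07 FPKM in control morulae and at 2.87, 6.61 and 1.64 FPKM in 8-cell embryos. Every morula library was under 1 FPKM, so ZAR1 too was tested through the 8-cell group alone and had to differ. It fell by 1.62 in control morulae (SE 0.384, limma adjusted p = 0.00369) and fell by 1.76 in KDM6A morulae (SE 0.349, limma adjusted p = 0.00113). These p-values of ZAR1 add no support to the fall, as for PABPN1L. ZAR1L exceeded ZAR1 in each of the 9 libraries, 14.9 to 73.0 times in 8-cell embryos.

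CPEB1, which binds the cytoplasmic polyadenylation element of stored messages, was at 3.73, 2.37 and 1.83 FPKM in KDM6A morulae, at 7.98, 1.07 and 2.95 FPKM in control morulae and at 29.51, 30.70 and 41.86 FPKM in 8-cell embryos. It fell by 3.05 in control morulae relative to 8-cell embryos (SE 0.453, limma adjusted p = 0.000219) and fell by 3.28 in KDM6A morulae (SE 0.282, limma adjusted p = 4.92e-06), with no overlap between stages. MOS, the kinase that starts the MAP kinase cascade of the oocyte and whose message is a classic target of cytoplasmic polyadenylation in Xenopus, was at 2.98, 2.67 and 0.88 FPKM in KDM6A morulae, at 10.06, 0.50 and 1.89 FPKM in control morulae and at 20.88, 16.27 and 13.93 FPKM in 8-cell embryos. Control replicate 1 held 59.1% of the 8-cell mean of MOS, the closest that any falling member other than CNOT7 and PATL2 came to its 8-cell level in a morula library. MOS fell by 2.29 in control morulae relative to 8-cell embryos (SE 0.592, limma adjusted p = 0.00599) and fell by 2.56 in KDM6A morulae (SE 0.332, limma adjusted p = 6.91e-05). Against 8-cell embryos, the log2 fold change of MOS in control morulae was -3.10 without control replicate 1 and -1.65 without control replicate 2.

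PATL2, an oocyte member of the Pat1 family of mRNA-silencing proteins that is required for oocyte maturation in human, overlapped between control morulae and 8-cell embryos. It stood at 1.04, 0.74 and 0.71 FPKM in KDM6A morulae, at 2.19, 1.83 and 1.75 FPKM in control morulae and at 1.71, 2.88 and 3.50 FPKM in 8-cell embryos. All 3 KDM6A libraries lay below both other groups, as for CNOT7, and 1 of them reached 1 FPKM. The difference between control morulae and 8-cell embryos was -0.31 (SE 0.251, 95% interval -0.87 to 0.25, limma adjusted p = 0.291), and it was called after quantile normalization (-0.72, limma adjusted p = 0.0272). KDM6A morulae were lower than 8-cell embryos by a called difference of -0.99 (SE 0.257, limma adjusted p = 0.00581).

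Over the 10 members, 8 were called lower and 1 higher in control morulae than in 8-cell embryos, where 69.8% of the 10048 genes tested were called, 27.1% lower and 42.7% higher. In KDM6A morulae 9 were called lower and 1 higher, where 66.7% of 10024 genes were called, 25.6% lower and 41.1% higher. Both comparisons share the 8-cell libraries, and 3 members (PABPN1L, ZAR1 and PABPC1L) passed the filter only through the group in which they were high, so these counts describe the members and are not evidence about them as a set. The median log2 fold change of the members was -2.37 in control morulae and -2.39 in KDM6A morulae, beside 0.35 and 0.34 over all genes tested. Quantile normalization brought the median of all genes to 0.033 in the control comparison, with 3516 higher and 3412 lower calls in place of 4293 and 2719, and to 0.036 in the KDM6A comparison, with 3313 higher and 3247 lower in place of 4121 and 2568. Members kept their directions against 8-cell embryos under the 3 scalings run (TPM, quantile and median-of-ratios). In bulk libraries, fewer embryos or cells that carry a transcript and less of it in each cannot be told apart.

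**Figure D2:**
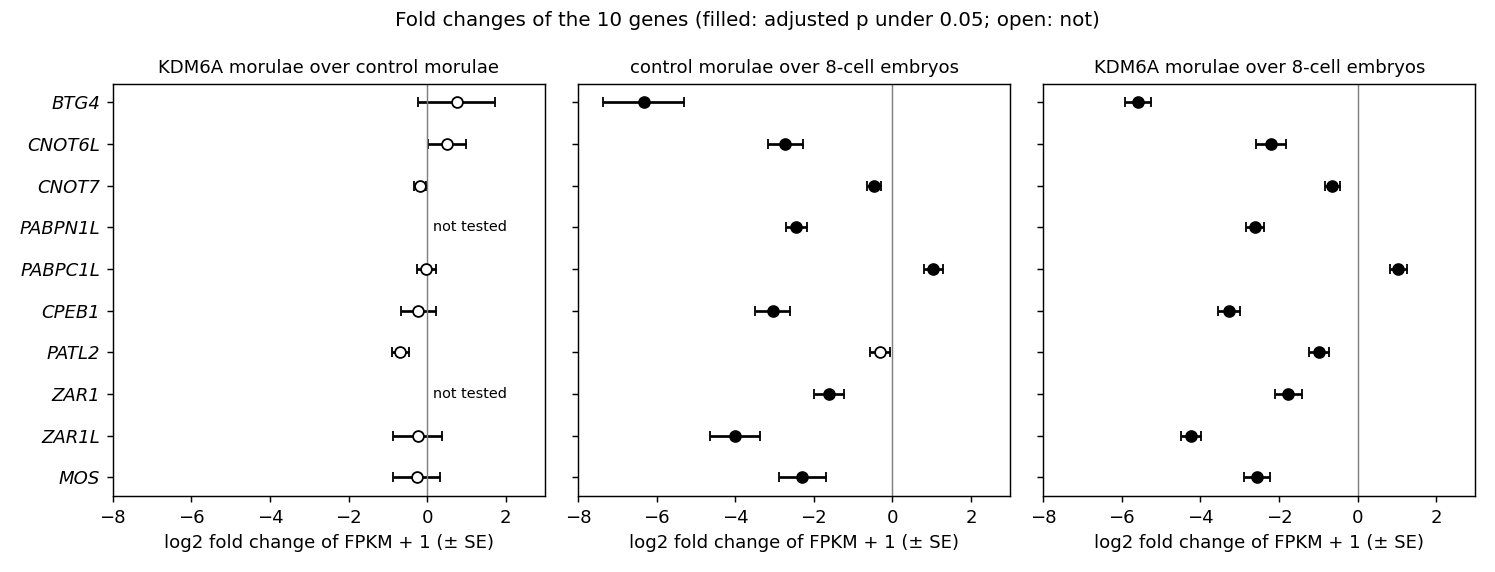
Log2 fold changes of FPKM + 1 with standard errors for KDM6A morulae over control morulae, control morulae over 8-cell embryos and KDM6A morulae over 8-cell embryos, with filled points for adjusted p under 0.05 and open points for the rest. All estimates against control morulae are open, between -0.68 (PATL2) and 0.75 (BTG4), while BTG4 and ZAR1L lie farthest to the left against 8-cell embryos. Filled points of PABPN1L, ZAR1 and PABPC1L add no support, since these genes passed the filter only through the group in which they were high.

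The comparison of KDM6A morulae with control morulae asks what the injection and the demethylase mRNA together changed. No member was called among the 8 tested, where 0.164% of 9777 genes were called (16 genes), so the absence of calls is close to the background. One member, PATL2, had an unadjusted p under 0.05, as did 12.7% of all genes tested. PATL2 averaged 0.830 ± 0.183 FPKM in KDM6A morulae and 1.92 ± 0.234 FPKM in control morulae (SD, n = 3 each), a log2 fold change of -0.68 (SE 0.206, 95% interval -1.13 to -0.22, limma unadjusted p = 0.00743, adjusted p = 0.281). The adjusted p of PATL2 was 0.0645 to 0.817 over 13 alternatives. CNOT7 and PATL2 had all 3 KDM6A libraries below all 3 controls, as did 8.61% of genes, and the smallest exact two-sided permutation p that 3 against 3 allows is 0.1.

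For most of the other members the intervals were wide, CNOT7 and PABPC1L being the exceptions. The log2 fold change of BTG4 in KDM6A over control morulae was 0.75 (95% interval -1.40 to 2.89), although its mean was lower in KDM6A morulae, at 118 ± 37.8 FPKM, than in control morulae, at 158 ± 192 FPKM (SD, n = 3 each). On the log scale the low control replicate 2 sets that sign, and without it the fold change was -0.69 (limma adjusted p = 0.716). ZAR1L was at -0.24 (95% interval -1.61 to 1.13), MOS at -0.27 (-1.58 to 1.04) and CPEB1 at -0.23 (-1.21 to 0.74). Each of these 3 turned positive without control replicate 1, at 0.55 for ZAR1L, 0.54 for MOS and 0.32 for CPEB1, with limma adjusted p of 0.522 to 0.683. CNOT6L was at 0.51 (-0.55 to 1.57), and at 0.05 without control replicate 3 and 1.03 without control replicate 1. CNOT7 was at -0.18 (-0.52 to 0.17) and PABPC1L at -0.02 (-0.55 to 0.52). PABPN1L and ZAR1 were below the filter in both morula groups.

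The control libraries were themselves spread widely for most members. Control replicate 1 was the highest control for 9 of the 10 members, CNOT7 being the exception, and it was at least 2-fold above both other controls for 7, namely BTG4, CNOT6L, PABPN1L, CPEB1, ZAR1, ZAR1L and MOS. Of the 8 members that reached 1 FPKM in a control, 5 did so, where the share among all 10203 such genes was 3.43% for control replicate 1, 1.04% for replicate 2 and 0.794% for replicate 3. Among the 2233 of those genes that were called lower in control morulae than in 8-cell embryos, the share was 8.42% for control replicate 1, 0.493% for replicate 2 and 0.717% for replicate 3. The pattern was not particular to the members. Of 14 oocyte markers (described below) that reached 1 FPKM in a control, 11 had control replicate 1 at least 2-fold above both others. Control replicate 2 stood at the other end, at no more than 1/2 of both other controls for BTG4, CPEB1, ZAR1L and MOS, as in 2.70% of genes. BTG4 in control replicate 1 was 44.8 times its level in replicate 2 and 4.14 times that in replicate 3.

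Set against the 8-cell mean, control replicate 1 held 6.33% of BTG4, 17.9% of ZAR1L, 23.4% of CPEB1, 27.3% of CNOT6L and 59.1% of MOS, so the share differed between members. The same shares were 0.141%, 0.995%, 3.14%, 9.66% and 2.94% in control replicate 2. For most members the KDM6A libraries lay closer together, with BTG4 at 1.47% to 2.71%, ZAR1L at 3.20% to 5.66% and CPEB1 at 5.38% to 10.96% of the 8-cell mean. The standard deviation of log2(FPKM + 1) was 0.445 among KDM6A morulae and 2.69 among control morulae for BTG4, 0.337 and 1.64 for ZAR1L, and 0.594 and 1.47 for MOS. It was larger among KDM6A than control morulae for CNOT7 (0.134 and 0.0788) and PATL2 (0.14 and 0.114). CNOT6L kept another order, with KDM6A replicate 1 at 7.51% and KDM6A replicates 2 and 3 at 24.1% and 26.6% of the 8-cell mean.

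Markers of the oocyte moved with the members in sum. OOEP overlapped between control morulae (16.59 to 25.48 FPKM) and 8-cell embryos (22.66 to 45.36 FPKM) and was not called (limma adjusted p = 0.219). Summed over the 18 of 21 oocyte markers measured, the level was 56.9 to 67.2 FPKM in KDM6A morulae, 172, 35.3 and 60.2 FPKM in control replicates 1, 2 and 3, and 717 to 857 FPKM in 8-cell embryos. All 18 were highest in control replicate 1 among the controls, and 13 were lowest in control replicate 2, counts for which no share over all genes is given. Cumulus and granulosa markers summed to 8.50 to 14.1 FPKM in KDM6A morulae, 13.03 to 15.25 FPKM in control morulae and 19.1 to 36.9 FPKM in 8-cell embryos over 8 genes, of which 3 were highest in control replicate 1 and 4, AMH, CYP19A1, INHBA and PTX3, were below 1 FPKM in all 9 libraries. HAS2 (mean 0.97 FPKM in control morulae, 11.58 in 8-cell embryos) and TNFAIP6 (2.76 and 7.40) made the 8-cell sum higher. STAR, HSD3B1, AMH, CYP19A1, INHBA and PTX3 had lower means in 8-cell embryos than in control morulae. HAS2 stood at 2.2, 0.04 and 0.67 FPKM in control replicates 1, 2 and 3. Donor fibroblast markers summed to 68.8 to 114 FPKM in KDM6A morulae, 100 to 157 FPKM in control morulae and 15.7 to 62.6 FPKM in 8-cell embryos over 10 genes, with 5 highest in control replicate 1. FN1, fibronectin, made up most of the morula sums, at 49.8 to 78.41 FPKM in KDM6A morulae, 86.2 to 123.67 FPKM in control morulae and 0.16 to 1.5 FPKM in 8-cell embryos. The other 9 summed to 11.93 to 35.65 FPKM in KDM6A morulae, 14.18 to 33.29 FPKM in control morulae and 15.55 to 61.1 FPKM in 8-cell embryos. Means of 5 of the 10 (COL1A1, COL1A2, COL3A1, VIM and LUM) were lower in control morulae than in 8-cell embryos, and LUM reached 29.11 FPKM in 8-cell replicate 2. The part of these markers in the spread of the members was not tested. The file of control replicate 1 alone also holds 3038 rows without an Ensembl gene identifier, which were not used.

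**Figure D3:**
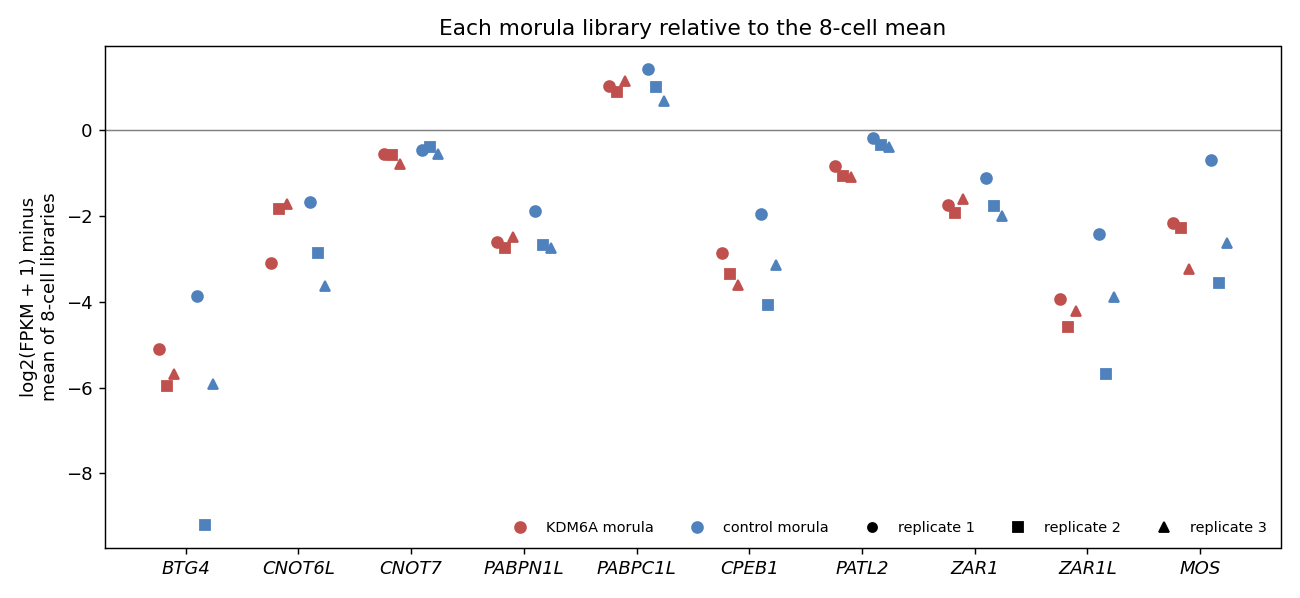
Difference of log2(FPKM + 1) in each morula library from the mean of the 3 8-cell libraries, for each of the 10 genes, with KDM6A morulae in red to the left of control morulae in blue and point shapes for replicate numbers. Control replicate 1 (circle) lies highest among the controls for all genes but CNOT7, and the control points of BTG4, ZAR1L and MOS spread more widely than the KDM6A points.

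The genes whose profile over the 9 libraries was most like that of the members were ranked by Pearson's r with the mean log2(FPKM + 1) of the 9 members that were higher in 8-cell embryos than in control morulae. Among 7148 genes, the 10 most alike were TRAPPC13, PHYHIPL, ACCSL, SLBP2, MPIG6B, WARS2, LETM2, TECTB, GDF9 and EIF4E1B, at r of 0.992 to 0.995. The 9 libraries share their stage difference, which dominates r, and within the 6 morulae r was 0.933 to 0.985 for these genes. They were picked on values that include these 6 morulae. Their high r within the morulae, and the order of their controls, therefore follow in part from the choice. GDF9, a growth factor that the oocyte secretes, was at 3.57, 2.66 and 2.12 FPKM in KDM6A morulae, at 7.57, 1.28 and 3.43 FPKM in control morulae and at 25.44, 28.43 and 21.21 FPKM in 8-cell embryos, the same order of controls as BTG4. Of the members, each set against the mean of the others, CPEB1 and ZAR1L followed it most closely, both at r = 0.988 over 9 libraries and at 0.947 and 0.944 over the 6 morulae. CNOT7 (r = -0.015), PATL2 (0.175) and CNOT6L (0.315) did not follow it over the 6 morulae.

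Set beside close relatives, several members lost ground between the stages. The ratio of BTG4 to BTG1, a broadly expressed member of the same family, was 1.13 to 1.40 in KDM6A morulae, 0.0719 to 4.64 in control morulae and 17.7 to 53.5 in 8-cell embryos. CPEB1 exceeded CPEB4, which binds the same kind of element, in every 8-cell library (1.89 to 3.09 times) and in no morula library, with ratios of 0.204 to 0.484 in KDM6A morulae and 0.143 to 0.862 in control morulae. CPEB4 itself averaged 8.50 ± 0.697 FPKM in KDM6A morulae, 8.29 ± 0.904 FPKM in control morulae and 14.9 ± 1.35 FPKM in 8-cell embryos (SD, n = 3 each). CNOT7 stayed above its close relative CNOT8 in all libraries, at ratios of 1.76 to 2.37 in KDM6A morulae, 1.98 to 2.47 in control morulae and 1.71 to 3.59 in 8-cell embryos, so these ranges overlapped.

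CNOT6L was below CNOT6, the other deadenylase of its type, in all 9 libraries, at ratios of 0.175 to 0.555 in KDM6A morulae, 0.0674 to 0.476 in control morulae and 0.469 to 0.972 in 8-cell embryos. PABPN1 averaged 155 ± 8.77 FPKM in KDM6A morulae, 153 ± 8.39 FPKM in control morulae and 755 ± 273 FPKM in 8-cell embryos (SD, n = 3 each), so both PABPN1L and its general relative were higher at the earlier stage. PABPC1L made up a small fraction of PABPC1, at ratios of 0.00317 to 0.0041 in KDM6A morulae, 0.00214 to 0.00541 in control morulae and 0.000972 to 0.00164 in 8-cell embryos. PATL2 to PATL1, the family member of other tissues, was 0.0518 to 0.0867 in KDM6A morulae, 0.137 to 0.202 in control morulae and 0.0941 to 0.208 in 8-cell embryos. CNOT6 fell by 1.46 in control morulae relative to 8-cell embryos (limma adjusted p = 0.00048), while CNOT8 (-0.33, adjusted p = 0.24) and PATL1 (-0.53, adjusted p = 0.0704) were not called, though both were after median-of-ratios scaling. CPEB2 was not analysed here. The handling of reads shared between such relatives was not stated in the labels, so these ratios are uncertain.

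**Figure D4:**
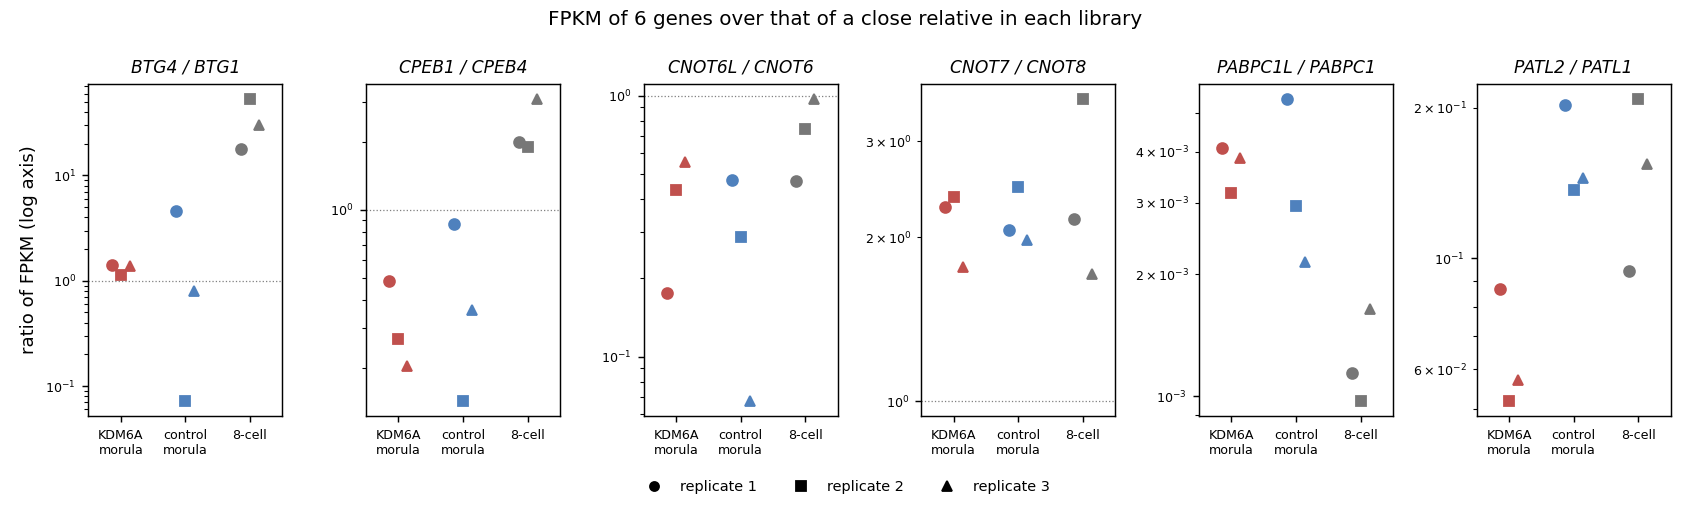
Ratio of FPKM of 6 members to a close relative in each library, on log axes whose range differs between panels, with KDM6A morulae, control morulae and 8-cell embryos from left to right and a dotted line at 1 where in range. BTG4 to BTG1 and CPEB1 to CPEB4 are highest in 8-cell embryos, CNOT7 to CNOT8 overlaps between groups, and PATL2 to PATL1 is lowest in KDM6A morulae.

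Among other genes of these pathways, none was called between KDM6A and control morulae, in 13, 7, 16, 6, 16, 14 and 17 tested members of the 7 lists named next. XRN1, the exonuclease that degrades decapped mRNA, was singled out after its values were seen, at 8.85 ± 3.71 FPKM in KDM6A morulae and 3.77 ± 0.888 FPKM in control morulae (SD, n = 3 each; limma adjusted p = 0.283). Its groups overlapped, and it did not stand out. ZFP36, a recruiter of deadenylation, was higher in KDM6A morulae by 0.88 without overlap (limma adjusted p = 0.227). MAP2K1, of the MAP kinase pathway, was lower by 0.92 (limma adjusted p = 0.283). Between control morulae and 8-cell embryos the lists split in both directions, and for every list quoted the share of all genes called was 69.8%. Of 13 other CCR4-NOT subunits and BTG/TOB adaptors 3 rose and 8 fell, a split that became 1 and 8 after quantile normalization and 0 and 9 after median-of-ratios scaling, and 0 and 6 without control replicate 2. TOB2, an adaptor that recruits the deadenylases, fell to 2.26 ± 0.626 FPKM in control morulae, against 35.3 ± 5.19 FPKM in 8-cell embryos, and CNOT4, a ubiquitin ligase associated with the complex, to 6.85 ± 1.73 against 43.7 ± 6.54 FPKM (SD, n = 3 each; limma adjusted p = 3.06e-06 and 1.55e-05). CNOT1, the scaffold of the complex, rose to 56.1 ± 7.59 FPKM in control morulae, against 33.3 ± 5.92 FPKM in 8-cell embryos (limma adjusted p = 0.00993), a call lost after median-of-ratios scaling (0.0629) and without control replicate 2 (0.0505). CNOT11 (log2 fold change 0.61) lost its call under all 3 scalings and without control replicate 2, with adjusted p up to 0.172.

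The relatives of BTG4 also fell, BTG1 by 0.82, BTG2 by 1.29 and BTG3 by 1.54 on the log2 scale in control morulae relative to 8-cell embryos, far less than BTG4. The call of BTG2 was lost without control replicate 1 or 2 (limma adjusted p up to 0.0902). Of 7 other deadenylases and terminal uridylyltransferases 2 rose and 4 fell. PAN2, the catalytic subunit of the PAN2-PAN3 deadenylase, rose to 14.6 ± 3.62 FPKM in control morulae, against 1.55 ± 0.732 FPKM in 8-cell embryos. TUT7, which adds uridines to deadenylated tails, fell to 40.2 ± 10.2 FPKM in control morulae, against 236 ± 62.2 FPKM in 8-cell embryos, and PARN, a poly(A)-specific ribonuclease, fell to 12.45 ± 5.06 against 41.2 ± 22.8 FPKM (SD, n = 3 each; limma adjusted p of the 3 genes at most 0.00398).

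Of 16 decapping and 5′ decay genes 7 rose and 4 fell, or 7 and 6 after quantile normalization. Of the rises, 1 (DCP1B) had no 8-cell library at 1 FPKM and passed the filter through control morulae alone, so it had to differ. The same holds for the genes so described in the lists that follow, which are named here after their values were seen. The decapping enzyme DCP2 (log2 fold change -2.08) and its activator DCP1A (-1.72) fell in control morulae relative to 8-cell embryos, and the LSM ring subunits LSM5 (1.36) and LSM6 (1.30) rose, with limma adjusted p of at most 0.00138. Of 6 poly(A)-binding and PABP-interacting genes 3 rose and 3 fell, or 2 and 3 after median-of-ratios scaling, where PABPC1 lost its call (limma adjusted p = 0.06). PABPC4, another cytoplasmic poly(A)-binding protein, rose by 1.29, and PAIP2, an inhibitor of these proteins, by 0.85. PAIP1, a partner of them that favours translation, fell to 148 ± 95.0 FPKM in control morulae, against 855 ± 209 FPKM in 8-cell embryos (SD, n = 3 each), and was at 257.79 FPKM in control replicate 1 against 87.97 and 99.20 FPKM in replicates 2 and 3. PAIP2B fell by 2.33.

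Of 18 genes of cytoplasmic polyadenylation and mRNA storage 3 rose and 11 fell, or 2 and 12 after quantile normalization. Of the falls, 2 (DAZL and DDX4) passed the filter through 8-cell embryos alone. EIF4E1B, an oocyte form of the cap-binding protein, fell by 3.03 in control morulae relative to 8-cell embryos and YBX2, a germ-cell protein that stabilises stored mRNA, by 2.39, while the cleavage and polyadenylation subunits CPSF1 (1.46) and CPSF4 (1.02) rose. EIF4E1B repeated the order of the controls, at 6.12, 0.59 and 1.59 FPKM in replicates 1, 2 and 3. CPEB3 and CPEB4 fell by 0.71 and 0.77, of which the call of CPEB3 was lost without control replicate 1 or 2 (limma adjusted p up to 0.12). Of 14 RNA-binding recruiters 4 rose and 5 fell, among them AGO3, an Argonaute of the microRNA pathway (-2.94), TNRC6B, its silencing partner (-1.01), YTHDF1, a reader of N6-methyladenosine (1.41), and CELF1, which binds GU-rich messages (0.84). The other 2 rises (AGO4 and SAMD4A) passed the filter through control morulae alone.

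Of 18 genes of the MOS and MAP kinase pathway and of meiotic arrest 10 rose and 8 fell, or 7 and 8 after quantile normalization. Of these, 1 rise (RPS6KA1) passed the filter through control morulae alone and 1 fall (FBXO43) through 8-cell embryos alone. WEE2, an oocyte kinase that inhibits CDK1, fell to 1.28 ± 1.86 FPKM in control morulae, against 28.6 ± 12.9 FPKM in 8-cell embryos (limma adjusted p = 0.000101). RPS6KA1, a kinase downstream of the MAP kinases, stood at 14.1 ± 1.97 FPKM in control morulae, against 0.373 ± 0.319 FPKM in 8-cell embryos, and CDC25A, a phosphatase of the mitotic cell cycle, rose to 25.4 ± 6.67 against 0.950 ± 1.01 FPKM (SD, n = 3 each; limma adjusted p of CDC25A 1.70e-05). CDK1 itself fell by 1.70. Control replicate 1 was at least 2-fold above both other controls for 3 of the 92 genes of these 7 lists that reached 1 FPKM in a control, namely PAIP1, EIF4E1B and WEE2.

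**Figure D5:**
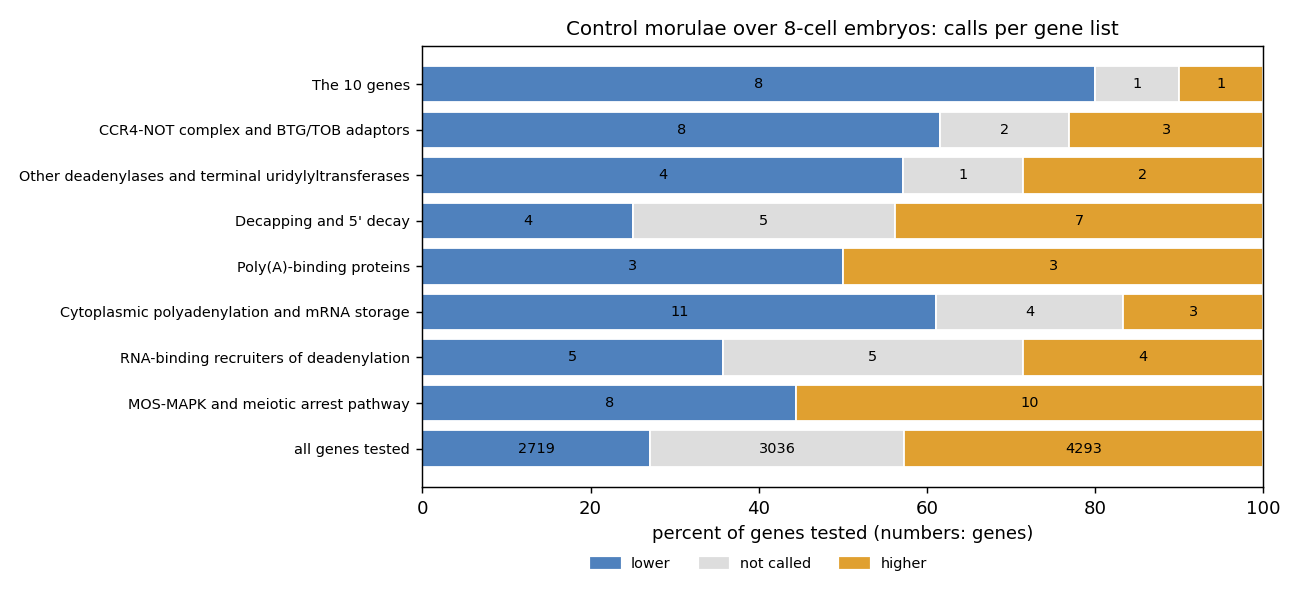
Percent of the tested genes of each list called lower, not called and called higher in control morulae relative to 8-cell embryos by limma, with the numbers of genes printed in the bars and all genes tested in the last row. Lower calls make up 8 of the 10 named genes, 8 of 13 CCR4-NOT and adaptor genes and 11 of 18 storage genes, beside 2719 of 10048 genes.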

How the data were processed

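The authors deposited 1 FPKM value per gene and library, per the file headers. The submitters' processing notes list RSEM 1.2.12, Bowtie2 2.2.5, StringTie 1.0.4, HISAT 0.1.6 and bcl2fastq 2.16, and UMD3.1 as genome build. The role of each tool, filters and strand settings are not stated there. Depth is unknown, so no counting intervals are given. Files were joined by Ensembl identifier in pandas 2.3.3 (numpy 2.4.6, Python 3.11.15).

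For every comparison, a model of the 6 libraries involved was fitted on log2(FPKM + 1), using limma 3.58.1 under R 4.3.3 and a trended prior, for genes at 1 FPKM in at least 3 libraries. P-values were adjusted by Benjamini-Hochberg, and the code was tested on simulated data. Percentages of the 8-cell mean and ratios use plain FPKM. Members and lists were chosen with earlier results of these data known. Named were all members, their close relatives, any list gene called between KDM6A and control morulae, and from each list the 2 called rises and 2 called falls that were greatest in control morulae against 8-cell embryos, provided that the group with more had a mean of 5 FPKM. List counts under other settings were added after the data were seen. Protein and promoter sequences were not used here.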

Additional observations from a re-analysis of the deposited data

How the results depend on the processing

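The fits were repeated with other scalings (median-of-ratios, quantile, TPM), a pseudocount of 0.1, a filter of 5 FPKM or none, 1 fit of all 9 libraries, a replicate block, and with every replicate omitted in turn. For single members, 121 of 127 values kept direction and side of the threshold in control morulae against 8-cell embryos, 126 of 127 in KDM6A morulae against 8-cell embryos and 100 of 108 in KDM6A against control morulae. Members called over the replicates left out were 6 to 7, of 8 or 9 tested, in control morulae against 8-cell embryos. They were 8 to 9 in KDM6A morulae against 8-cell embryos and 0 throughout in KDM6A against control morulae. Over all genes, calls in control morulae against 8-cell embryos ran from 5286 of 9123 tested (without control replicate 2) to 6528 of 9500 (without 8-cell replicate 1). A filter of 5 FPKM left 6 members tested and 6 called in KDM6A morulae against 8-cell embryos, since fewer genes were tested. Other CCR4-NOT and adaptor genes called against 8-cell embryos were 6 of 13 without control replicate 2 in place of 11, and the cause was not tested.

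Signs turned, with no call, in KDM6A over control morulae when a replicate was left out, with ranges of -0.69 to 1.98 for BTG4, -0.74 to 0.32 for CPEB1, -1.09 to 0.55 for ZAR1L, -0.91 to 0.54 for MOS and -0.20 to 0.18 for PABPC1L, and for PABPC1L on the TPM scale (0.03). MOS was 0.07 without KDM6A replicate 3 and PABPC1L 0.05 without KDM6A replicate 2. Over all genes that comparison had 16 calls, against 10 with all 9 libraries, 0 with no filter, 28 after quantile normalization, 25 on the TPM scale, 725 without KDM6A replicate 1, 3 without KDM6A replicate 2, 1 without KDM6A replicate 3, 8 without control replicate 2 and 3 without control replicate 3. Deviations of same-numbered libraries correlated at -0.242 to 0.16, in no comparison above 0.1 for every number, and the numbers were not taken as pairs. With the replicate block it had 1 call, and members called were unchanged at 0, 9 and 10 in KDM6A against control morulae, control morulae against 8-cell embryos and KDM6A morulae against 8-cell embryos. Without some libraries ZAR1, PABPN1L and PABPC1L fell under the filter and were not tested, and at such levels precision rests on 3 libraries a group.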
